A study of Ovis aries with 8 samples.

Results

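Most of the enzymes described here move amino groups between amino acids and keto acids or open the catabolic routes of the branched-chain amino acids and lysine. The others include GLUL, which joins ammonia to glutamate. All members were chosen by name, with earlier results of these data known, as GOT1, GOT2, AASS, BCAT2, BCKDHA, BCKDHB, GLUL, GLUD1, ASNS and PSAT1. Of these 10 genes, 9 had at least 1 probe set annotated to them, 14 probe sets in all out of 24016 probe sets tested and 9155 named genes. ASNS was not analysed here. Where a gene had several probe sets, the one with the highest mean over all arrays stood for the gene and the others served as a check.

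Perirenal adipose tissue was taken from 4 NmatCpat lambs, heterozygous for the Callipyge mutation with the mutant allele inherited from the sire, and from 4 NmatNpat lambs with a normal allele from each parent. All 8 were male Dorset/Suffolk/Rambouillet cross-bred lambs of 12 weeks that had not been weaned. Each lamb gave 1 Affymetrix Bovine Genome array, so cattle probes read sheep RNA. The study profiled this fat to ask whether a mutation known for enlarging certain skeletal muscles goes with changes outside muscle.

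Branched-chain amino acids are catabolised in mitochondria by a reversible transamination, which BCAT2 carries out, followed by an irreversible oxidative decarboxylation by the branched-chain ketoacid dehydrogenase complex. Adipose tissue is one of the sites of this pathway, and its carbon can enter fatty acid synthesis. The amino groups that are released pass to glutamate and from there to aspartate through GOT1 and GOT2, to ammonia through GLUD1, or to glutamine through GLUL.

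The aspartate aminotransferase of the cytosol and the enzyme that opens lysine breakdown were higher in NmatCpat fat, and the branched-chain enzymes were not distinguishable between the genotypes. GOT1 was 2.06 times and AASS 1.97 times as high in NmatCpat lambs as in NmatNpat lambs, so 2 of the 9 genes (22.2%) passed a P no higher than 0.05 together with a fold change above 1.5, against 2.91% of all named genes (1.39% on the higher side). Of the 14 probe sets 2 passed, against 3.93% of all probe sets. Because the genes were chosen with earlier results of these data known, these shares do not test the group. The other 7 genes differed by between -0.16 and 0.06 on the log2 scale (NmatCpat minus NmatNpat). The median difference over the 9 genes was 0.04, against 0.005 over all named genes, and 5 genes had the higher mean and 4 the lower mean in NmatCpat lambs, where 50.7% of all named genes had the higher mean. No gene or probe set of the whole array passed an adjusted p under 0.05 (limma, Benjamini-Hochberg over 24016 probe sets), and 1118 probe sets (4.66%) had an unadjusted P no higher than 0.05.

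Values are log2 intensities after quantile normalization. Lambs are compared within a probe set or by a mean over the same probe sets. Where a probe set is called dim or bright, or ranked among all probe sets, this describes its intensity only. It does not compare amounts of RNA between genes. The array medians of the deposited intensity lay between 65.9 and 71.7 in NmatCpat lambs and between 65.3 and 72.6 in NmatNpat lambs. Adipocyte markers bore out the tissue label, with ADIPOQ at 12.81 to 13.29 and FABP4 at 13.63 to 13.74 over all 8 lambs, while LEP, which encodes leptin, was dim at 3.80 to 5.78. In bulk tissue, fewer cells of a type and less RNA per cell cannot be told apart. Neuron markers set the array of NmatNpat animal 1 apart, where the mean of 9 such genes was 10.84, against 4.04 to 4.73 in NmatCpat lambs and 4.33 to 5.83 in the other 3 NmatNpat lambs. Skeletal muscle markers were highest in NmatCpat animal 4, at a mean of 7.58 over 13 genes.

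GOT1, the cytosolic aspartate aminotransferase, had log2 intensities of 5.66, 5.55, 6.21 and 6.05 in NmatCpat lambs 1 to 4, against 4.37, 5.06, 5.77 and 4.12 in NmatNpat lambs 1 to 4. The NmatCpat lambs lay close together, while the NmatNpat lambs were spread widely, and NmatNpat animal 3 lay within the NmatCpat range. The means were 5.87 ± 0.312 in NmatCpat lambs and 4.83 ± 0.743 in NmatNpat lambs (SD, n = 4 each). The difference of 1.04 had a standard error of 0.38 and a 95% interval of 0.17 to 1.91 (limma, P = 0.025, adjusted p = 0.983, exact permutation p = 0.0857). The exact permutation test was two-sided over the 70 arrangements of the lambs, and 0.0286 is the smallest p it can give.

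The probe set of GOT1 was dim, with deposited intensities of 45.8 to 72.8 in NmatCpat lambs and 16.8 to 54.6 in NmatNpat lambs. Its difference stayed above 0 when any 1 lamb was left out, at 0.80 to 1.35, but its P went above 0.05 without NmatCpat animal 3 (difference 0.93), NmatCpat animal 4 (0.98), NmatNpat animal 1 (0.89) or NmatNpat animal 4 (0.80). With NmatCpat animal 4 and NmatNpat animal 1 both left out, the difference was 0.83 and did not pass (limma, adjusted p = 1).

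**Figure D1:**
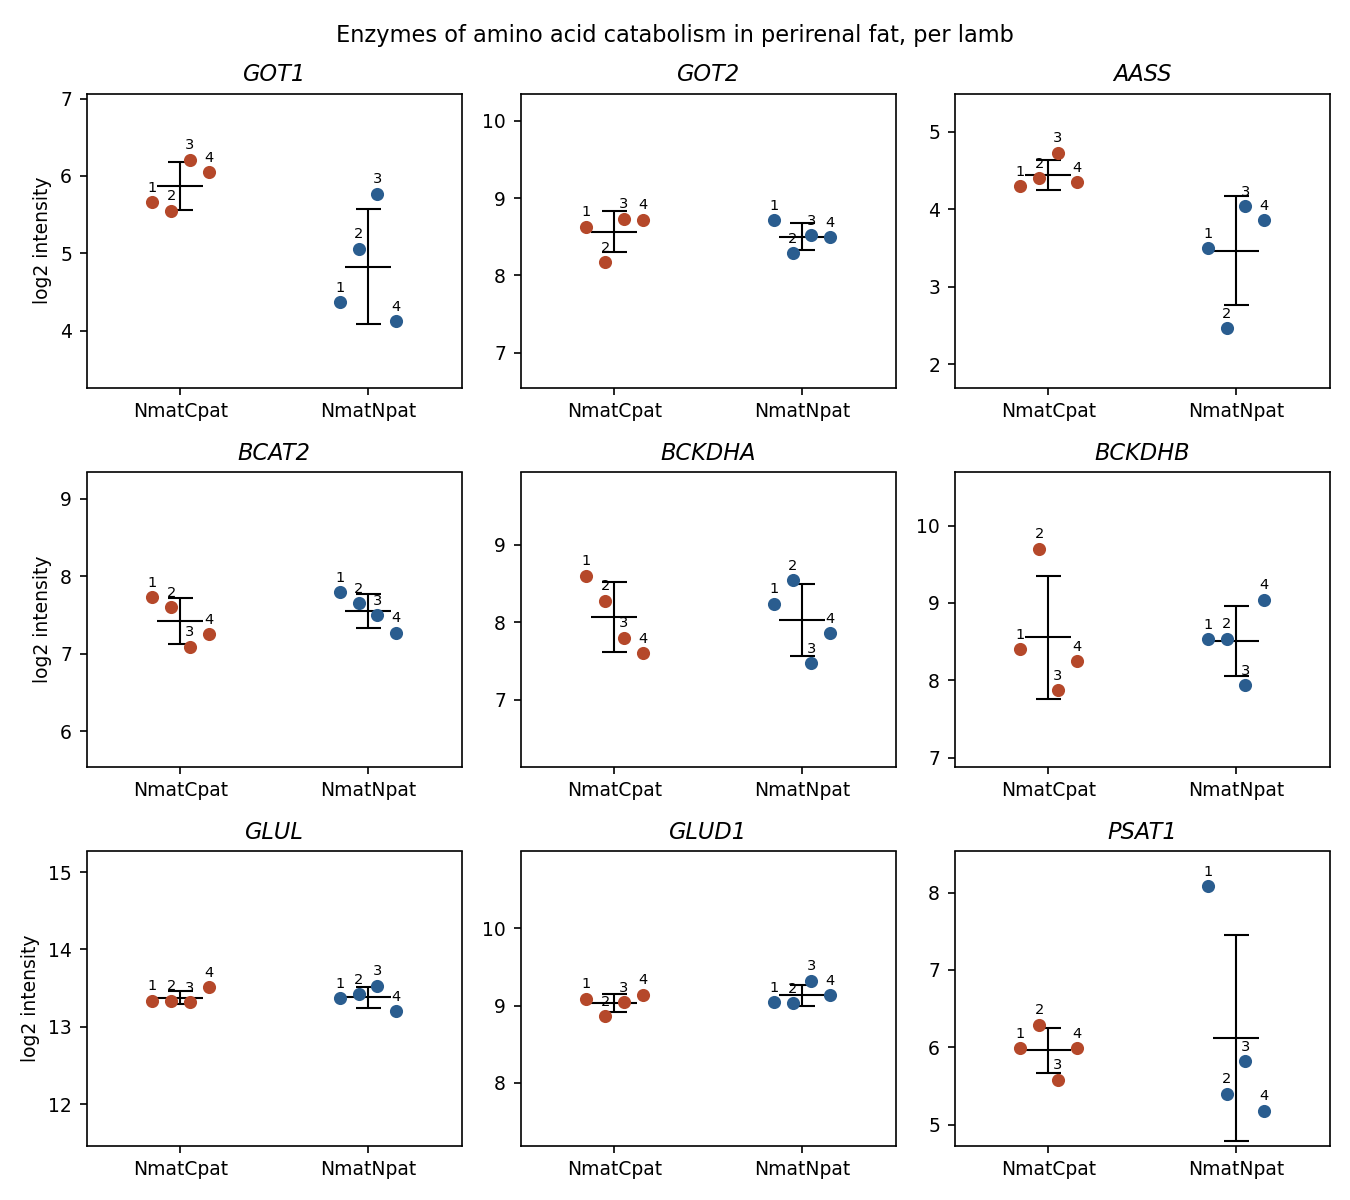
Log2 intensity of the brightest probe set of 9 genes in each lamb, with NmatCpat on the left and NmatNpat on the right of each panel. Numbers are animal numbers, the long bars are means and the short bars 1 SD either side (n = 4 each), and every panel spans the same log2 range around its own centre. The NmatCpat lambs stand above all NmatNpat lambs for AASS, and NmatNpat animal 1 stands alone at 8.08 for PSAT1.

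GOT2, the mitochondrial partner of GOT1 in the malate-aspartate shuttle, did not follow it. Its log2 intensities were 8.63, 8.17, 8.73 and 8.72 in NmatCpat lambs and 8.71, 8.29, 8.52 and 8.49 in NmatNpat lambs. The genotypes overlapped, and animal 2 was the lowest lamb of each. The difference of 0.06 had a 95% interval of -0.38 to 0.50 (limma), which leaves out a change of 2-fold in either direction. A dimmer GOT2 probe set gave 7.63, 7.74, 8.35 and 8.24 in NmatCpat lambs and 8.67, 7.48, 7.68 and 7.31 in NmatNpat lambs, a difference of 0.20 (95% interval -0.57 to 0.98).

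The measured carriers and dehydrogenase that work with both aminotransferases in the shuttle did not pass by their brightest probe sets. MDH1 and SLC25A13, which also belong to the shuttle, were not measured here. SLC25A11, the oxoglutarate carrier, differed by 0.30 (95% interval -0.14 to 0.74), and MDH2, the mitochondrial malate dehydrogenase, by 0.24 (-0.30 to 0.79). SLC25A12, an aspartate-glutamate carrier, differed by -0.40 by its brightest probe set (-1.08 to 0.27) and by -0.61 by a dimmer one (limma, P = 0.038, adjusted p = 0.983, exact permutation p = 0.0857). The alanine aminotransferases GPT and GPT2 each differed by -0.04.

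AASS, the bifunctional enzyme that carries out the opening steps of lysine degradation in mitochondria, had log2 intensities of 4.30, 4.40, 4.73 and 4.35 in NmatCpat lambs, against 3.50, 2.46, 4.04 and 3.86 in NmatNpat lambs. All 4 NmatCpat lambs lay above all 4 NmatNpat lambs, as was the case in one direction or the other for 2.84% of all named genes. The means were 4.44 ± 0.193 in NmatCpat lambs and 3.46 ± 0.705 in NmatNpat lambs (SD, n = 4 each). The difference of 0.98 had a standard error of 0.35 and a 95% interval of 0.18 to 1.78 (limma, P = 0.022, adjusted p = 0.983, exact permutation p = 0.0286).

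The AASS probe set was near the bottom of the array's range, with deposited intensities of 20.9, 20.8, 26.3 and 19.8 in NmatCpat lambs and 12.0, 5.7, 15.9 and 14.1 in NmatNpat lambs. The within-genotype SD had a median of 1.07 in the dimmest of 4 equal bins of probe sets by level and 0.233 in the brightest. With an offset of 16 added to every intensity before the log, the difference was 0.45 and no longer passed the fold threshold (limma, adjusted p = 0.967). Its P went above 0.05 without NmatCpat animal 3 (difference 0.89), with NmatCpat animal 4 and NmatNpat animal 1 both left out (1.02), and in a limma fit with trended and robust variances.

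Of 9 other lysine genes with a probe set, 4 had the higher mean and 5 the lower mean in NmatCpat lambs, with a median difference of 0.00, and none passed by its brightest probe set. Of their 15 probe sets, 2 dim ones passed P and fold, 1 of DHTKD1 and 1 of PIPOX, against 3.93% of all probe sets. These 2 are described because their values had been seen, so they add no test of the lysine genes. ALDH7A1, which acts after AASS on the lysine-derived semialdehyde, differed by -0.24 by its brightest probe set (95% interval -0.66 to 0.18). Its dimmer probe sets went the other way, at 0.22 and 0.24. AADAT, an aminotransferase of the next step, differed by 0.22 (-0.17 to 0.62). Among the brightest probe sets the lowest P of the list belonged to PIPOX, a peroxisomal oxidase, at -0.53 (exact permutation p = 0.229). Its other probe set, near the floor of the array, read 1.26 to 1.72 in NmatCpat lambs and 1.73 to 5.10 in NmatNpat lambs, with no overlap and a difference of -1.82 (limma, P = 0.045, adjusted p = 0.983, exact permutation p = 0.0286).

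DHTKD1, a subunit of the enzyme that decarboxylates the keto acid made from lysine, was read differently by its 2 probe sets, both dim. One read 4.08, 4.36, 4.55 and 3.69 in NmatCpat lambs, against 2.28, 0.63, 2.51 and 1.75 in NmatNpat lambs, a difference of 2.38 (limma, P = 0.00052, adjusted p = 0.781, exact permutation p = 0.0286). The slightly brighter one read 5.00, 1.95, 4.46 and 2.54 in NmatCpat lambs and 2.42, 2.77, 3.73 and 5.15 in NmatNpat lambs, a difference of -0.02 (95% interval -1.98 to 1.93). The genotypes were apart for the one and mixed for the other, and the deposited intensities of the one that was apart were 12.8 to 23.2 in NmatCpat lambs and 1.6 to 5.4 in NmatNpat lambs.

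Markers of other cell types were read beside the higher GOT1 and AASS. Of 13 skeletal muscle genes 11 had the higher mean in NmatCpat lambs (median difference 0.49, summed deposited intensity 5390 to 7420 in NmatCpat lambs and 5520 to 8720 in NmatNpat lambs). The 2 with the lower mean, MYH7 (-0.30) and CKM (-0.39), were bright, at mean levels of 11.8 and 9.87. Some of the higher ones, such as MYL2 (2.73) and TNNT1 (2.84), were near the floor. Of 9 neuron genes 0 had the higher mean (median difference -1.59, summed intensity 247 to 431 in NmatCpat lambs and 250 to 22200 in NmatNpat lambs), and of 6 lymphocyte genes 0 (median difference -0.43, 288 to 370 in NmatCpat lambs and 312 to 544 in NmatNpat lambs). Some markers were near the floor of the array. ELAVL4, a neuron gene, had deposited intensities of 0.7 to 4.1 in NmatCpat lambs and 9.8 to 938.4 in NmatNpat lambs. The part of these cell types in the differences of GOT1 and AASS was not tested.

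Across the 8 lambs, AASS had a Pearson r of 0.676 with the mean of the muscle genes (exact permutation p = 0.102, Spearman rho = 0.69, p = 0.0694, r = 0.711 without the 2 lambs farthest from the median and 0.483 for deviations from the genotype means). GOT1 had an r of -0.688 with the mean of the lymphocyte genes (exact permutation p = 0.0599, rho = -0.762, p = 0.0368, r = -0.74 without 2 lambs and -0.472 for deviations from the genotype means). With Benjamini-Hochberg adjustment over 33 such relations, the adjusted exact permutation p of both was 0.592 by Pearson and 0.382 by Spearman.

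**Figure D2:**
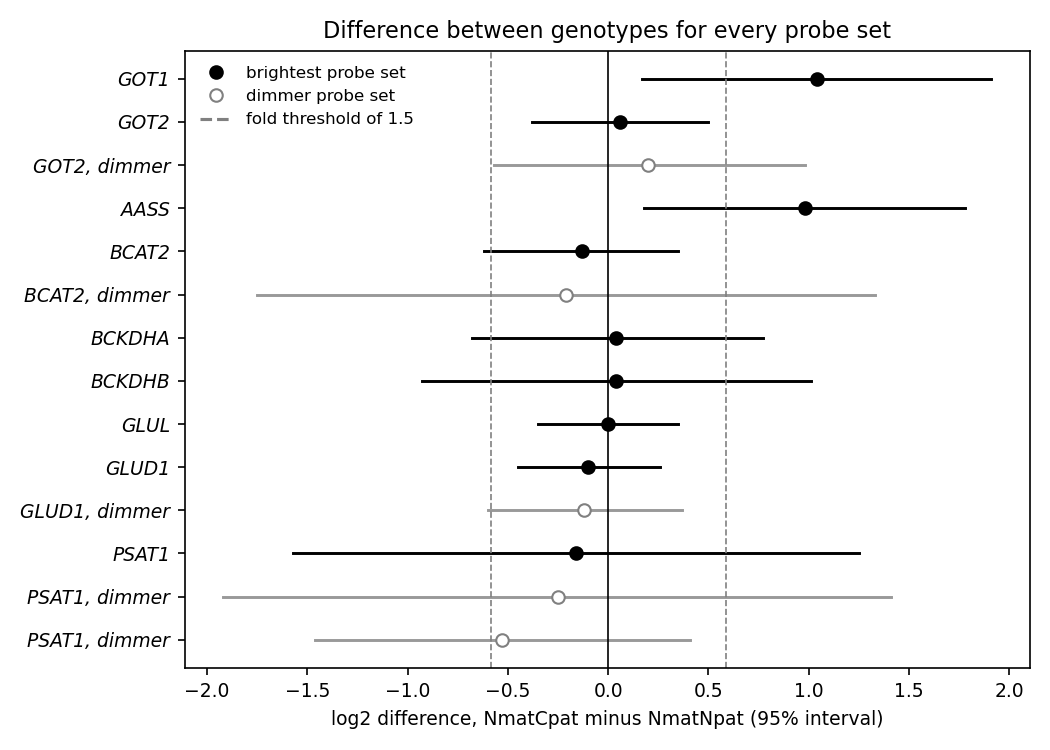
Log2 difference, NmatCpat minus NmatNpat, of all 14 probe sets with limma's 95% interval. Filled points are the brightest probe set of each gene, open points the dimmer ones, and dashed lines mark the fold threshold of 1.5. The intervals of GOT1 (0.17 to 1.91) and AASS (0.18 to 1.78) lie above 0, and all others include 0.

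The branched-chain enzymes showed no genotype difference beyond the spread between lambs. BCAT2, the mitochondrial branched-chain aminotransferase, had log2 intensities of 7.73, 7.60, 7.09 and 7.25 in NmatCpat lambs and 7.79, 7.65, 7.50 and 7.27 in NmatNpat lambs. The ranges overlapped, with the lowest 2 lambs both NmatCpat. The difference was -0.13 (95% interval -0.62 to 0.35, limma). A second BCAT2 probe set, close to the floor of the array, read 2.61 to 3.74 in NmatCpat lambs and 2.62 to 5.41 in NmatNpat lambs.

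BCKDHA and BCKDHB encode the alpha and beta subunits of the decarboxylase component of the dehydrogenase complex, the committed step. BCKDHA read 8.60, 8.28, 7.80 and 7.60 in NmatCpat lambs and 8.24, 8.54, 7.47 and 7.86 in NmatNpat lambs, a difference of 0.04 (95% interval -0.68 to 0.77). BCKDHB read 8.40, 9.70, 7.87 and 8.25 in NmatCpat lambs and 8.53, 8.54, 7.94 and 9.04 in NmatNpat lambs, a difference of 0.04 (-0.93 to 1.01), an interval that reaches just past 2-fold. For both genes the lambs of 1 genotype differed more among themselves than the genotypes did. NmatCpat animal 2 was the highest lamb for BCKDHB, and without it the difference was -0.34 (limma, adjusted p = 0.965).

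None of the partners of these enzymes passed P and fold. DBT, the transacylase core, differed by 0.15 (95% interval -0.23 to 0.53), and DLD, the shared dehydrogenase component, by 0.39 (-0.18 to 0.96). BCKDK, the kinase that inhibits the complex, differed by -0.20 (-0.69 to 0.30), and PPM1K, the phosphatase that activates it, by 0.45 (-0.60 to 1.5). BCAT1, the cytosolic aminotransferase, was dim and differed by -0.09 (-1.67 to 1.5). These values are those of the brightest probe sets, and dimmer ones did not always go the same way. The dimmer probe set of DBT differed by -0.67, and those of PPM1K by 0.24, 0.25 and -0.67. The dimmer BCAT1 probe sets differed by -1.65 (-3.60 to 0.29), -0.45 and -0.85.

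Over the whole branched-chain list of 23 further genes, 15 had the higher mean and 8 the lower mean in NmatCpat lambs, with a median difference of 0.12, and 0 passed P and fold. The smallest P belonged to IVD, the dehydrogenase of the leucine branch, which read 7.91, 6.98, 7.63 and 5.95 in NmatCpat lambs and 7.96, 8.09, 7.68 and 8.53 in NmatNpat lambs. NmatCpat animal 4 was the lowest lamb, and the genotypes overlapped narrowly. The difference was -0.95 (95% interval -1.95 to 0.04, limma, exact permutation p = 0.0571).

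The lambs were also compared by the average level of branched-chain genes, whatever their genotype. The mean of BCAT2, BCKDHA and BCKDHB was 8.24, 8.53, 7.59 and 7.70 in NmatCpat lambs and 8.18, 8.24, 7.64 and 8.05 in NmatNpat lambs. The mean of the 23 other branched-chain genes was 9.07, 9.15, 8.65 and 8.79 in NmatCpat lambs and 8.90, 9.11, 8.70 and 8.84 in NmatNpat lambs. Animals 1 and 2 of each genotype were high in both means and animal 3 of each was low, as was NmatCpat animal 4. Both means put the 8 lambs in the same order.

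Over the 8 lambs the 2 means had a Pearson r of 0.941 (exact permutation p = 0.00169, adjusted 0.0557 over 33 relations) and a Spearman rho of 1 (exact permutation p = 4.96e-05, the smallest that the 40320 orderings allow, adjusted 0.00164). The r was 0.916 without the 2 lambs farthest from the median and 0.946 for deviations from the genotype means. These relations were chosen after the values had been seen, and all points share the arrays and their normalization. Not every gene followed this order. BCAT2 with BCKDHB had r = 0.295 (exact permutation p = 0.489, r = -0.201 without 2 lambs), BCKDHA with BCKDHB had r = 0.415 (exact permutation p = 0.315), and IVD was highest in NmatNpat animal 4.

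Macrophage genes were read in the same lambs. The mean of 6 macrophage genes, CD68 and CD14 among them, was 7.25, 7.38, 8.35 and 8.51 in NmatCpat lambs and 6.79, 7.83, 8.54 and 8.15 in NmatNpat lambs. Of the 6, 3 had the higher mean in NmatCpat lambs, with a median difference of 0.01 and a summed intensity of 1290 to 3190 in NmatCpat lambs and 1180 to 3220 in NmatNpat lambs. Against the mean of the 3 branched-chain enzymes, r was -0.788 (exact permutation p = 0.0262, adjusted 0.433) and rho -0.714 (exact permutation p = 0.0576, adjusted 0.382). It was -0.961 without the 2 lambs farthest from the median and -0.788 for deviations from the genotype means. The part of macrophage RNA in the order of the lambs was not tested.

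**Figure D3:**
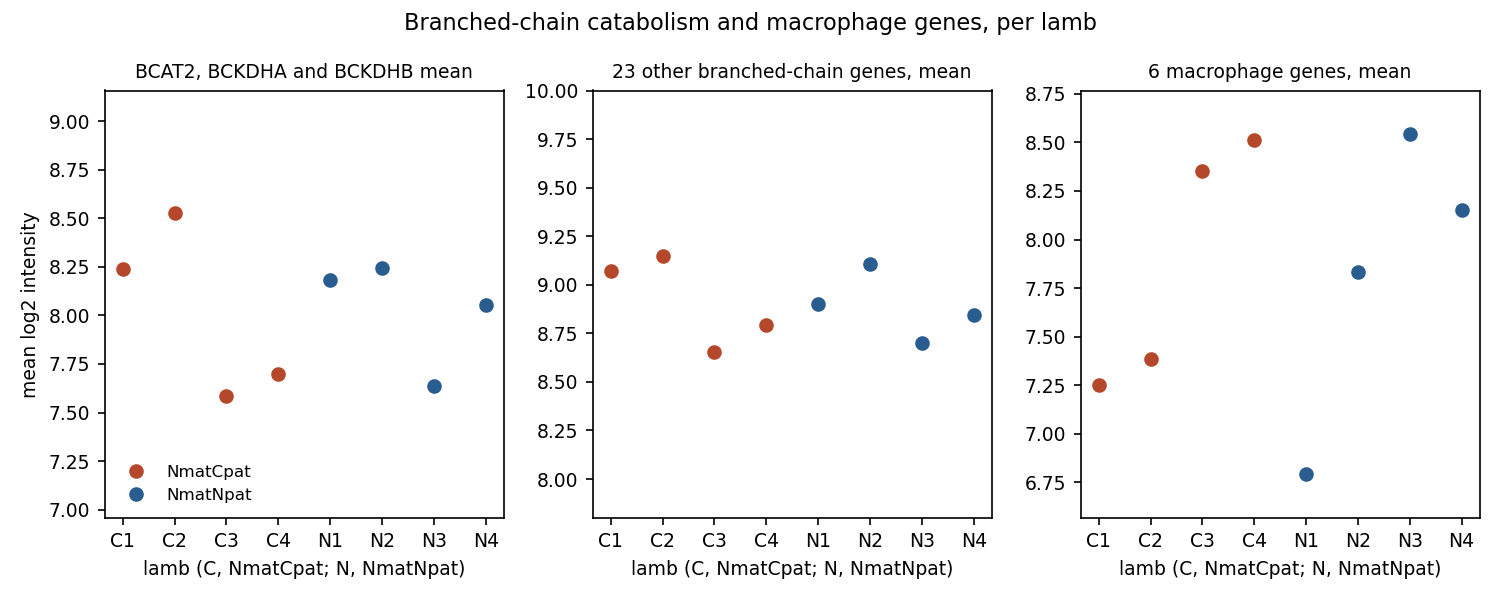
Mean log2 intensity per lamb of BCAT2, BCKDHA and BCKDHB (left), of 23 other branched-chain genes (middle) and of 6 macrophage genes (right), with NmatCpat lambs C1 to C4 before NmatNpat lambs N1 to N4. Each panel spans the same log2 range around its own centre. Lambs C3, C4 and N3 are lowest in the left panel, at 7.59, 7.70 and 7.64, and highest in the right one, at 8.35, 8.51 and 8.54.

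Among the 36 pairs of the 9 genes, 18 correlations across the lambs were positive and none passed adjustment, by Pearson or Spearman. The highest was that of BCAT2 with BCKDHA, at r = 0.713 (exact permutation p = 0.0591, adjusted 0.779, rho = 0.69, p = 0.0694, adjusted 0.605), with r = 0.653 without 2 lambs. The lowest was that of GOT2 with BCKDHB, at r = -0.724 (exact permutation p = 0.0417, adjusted 0.779, rho = -0.81, p = 0.0218, adjusted 0.392), with r = -0.411 without 2 lambs. GOT1 and AASS had r = 0.57 (exact permutation p = 0.13, adjusted 0.779, rho = 0.738, p = 0.0458, adjusted 0.55), with r = 0.86 without 2 lambs and 0.0733 once each genotype's mean was taken away.

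The next highest pairs were BCAT2 with PSAT1 (r = 0.564), GOT1 with GLUL (r = 0.526) and GLUL with GLUD1 (r = 0.455), and the next lowest BCKDHB with GLUD1 (r = -0.674) and BCKDHA with GLUD1 (r = -0.626). The exact permutation p of these 5 was 0.122, 0.182, 0.24, 0.0757 and 0.0882 in that order. Of 6330 other genes above the median level, those with the profile over the 8 lambs most like the mean of BCAT2, BCKDHA and BCKDHB were GALK1 (r = 0.972), BNIP3L (0.964), PDCD5 (0.958), MRPS16 (0.949) and TAF7 (0.948), given as a ranking with no test.

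The enzymes that handle ammonia and glutamine did not pass either. GLUL, glutamine synthetase, which joins ammonia to glutamate, was above 99.8% of probe sets in level and read 13.34, 13.34, 13.32 and 13.51 in NmatCpat lambs and 13.37, 13.42, 13.53 and 13.20 in NmatNpat lambs. The genotypes lay on top of each other, with a difference of 0.00 (95% interval -0.35 to 0.35, limma). GLUD1, glutamate dehydrogenase, read 9.09, 8.86, 9.04 and 9.14 in NmatCpat lambs and 9.04, 9.03, 9.32 and 9.13 in NmatNpat lambs, a difference of -0.10 (-0.45 to 0.26). Its dimmer probe set differed by -0.12 (-0.60 to 0.37). The intervals of GOT2, BCAT2, BCKDHA, GLUL and GLUD1 leave out a change of 2-fold in either direction, and those of BCKDHB and PSAT1 do not.

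PSAT1, the aminotransferase of serine synthesis, varied in 1 lamb more than between genotypes. Its brightest probe set read 5.99, 6.29, 5.58 and 5.99 in NmatCpat lambs and 8.08, 5.40, 5.82 and 5.18 in NmatNpat lambs. NmatNpat animal 1 stood far above all others, and the SD was 1.33 in NmatNpat lambs, against 0.29 in NmatCpat lambs. The difference was -0.16 (95% interval -1.57 to 1.25) with this lamb and 0.49 without it (limma, adjusted p = 0.999).

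The other PSAT1 probe sets were also highest in that lamb. One read 5.89, 4.71, 6.0 and 5.23 in NmatCpat lambs and 7.59, 3.98, 6.01 and 5.25 in NmatNpat lambs (difference -0.25), and another read 5.21, 5.34, 5.10 and 5.17 in NmatCpat lambs and 6.76, 5.93, 5.58 and 4.66 in NmatNpat lambs (difference -0.53). PHGDH, the dehydrogenase that precedes PSAT1 in serine synthesis, read 5.81, 5.93, 6.50 and 5.18 in NmatCpat lambs and 7.98, 5.83, 6.97 and 6.19 in NmatNpat lambs, again highest in NmatNpat animal 1. The brightest probe set of PSPH, the phosphatase that completes serine synthesis, read 8.63 to 9.09 in NmatCpat lambs and 8.84 to 9.55 in NmatNpat lambs. By that probe set animal 1 was the lowest of the NmatNpat lambs. The dimmer PSPH probe set read 7.76, 8.37, 7.39 and 7.73 in NmatNpat lambs 1 to 4, so animal 1 was not the lowest by it.

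The array of NmatNpat animal 1 is also the one that neuron markers set apart. STMN2, a protein of growing nerve fibres, read 12.41 there, against 2.90 to 5.39 in NmatCpat lambs and 2.17 to 6.74 in the other NmatNpat lambs. NEFM, a neurofilament subunit, read 12.10, against 2.34 to 5.20 in NmatCpat lambs and 2.44 to 5.99 in the other NmatNpat lambs. The part of these transcripts in the levels of PSAT1 and PHGDH was not tested. The dimmer probe sets of GOT2 (8.67) and BCAT2 (5.41) were highest in the same lamb, while GLUL, at 13.37, was within the range of the other lambs.

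**Figure D4:**
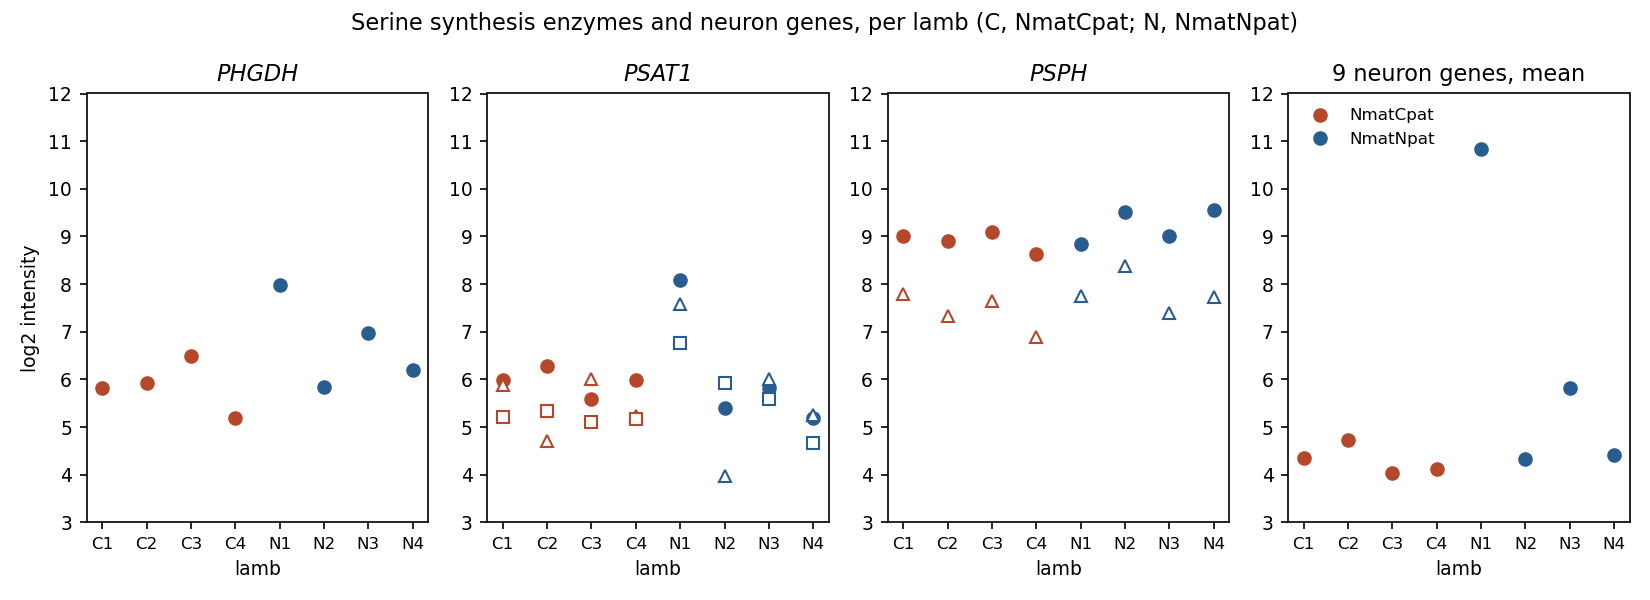
Log2 intensity per lamb of PHGDH, PSAT1 and PSPH, the enzymes of serine synthesis, and the mean of 9 neuron genes, with NmatCpat lambs C1 to C4 before NmatNpat lambs N1 to N4. Filled circles are the brightest probe set, open symbols the dimmer ones. N1 is the highest lamb for PHGDH (7.98), for all PSAT1 probe sets (8.08, 7.59 and 6.76) and for the neuron genes (10.84).

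Beyond these enzymes, 149 of 197 genes of amino acid metabolism, transport and response had a probe set, and 3 of them (2.01%) passed P and fold, 2 higher and 1 lower, against 2.91% of all named genes. The count depended on single lambs: it was 10 without NmatCpat animal 2, 7 without NmatCpat animal 4, 6 without any 1 of the other lambs but NmatNpat animal 3, and 3 without that lamb. Over the 149 genes, 69 had the higher mean and 80 the lower mean in NmatCpat lambs. The genotypes did not overlap for 7 of the 149, against 260 of 9155 named genes (2.84%). The lists were chosen with earlier results of these data known, so this count does not test them. SLC1A3, a transporter that takes glutamate and aspartate into cells, had the smallest P. It read 7.79, 7.93, 7.37 and 7.59 in NmatCpat lambs, against 6.31, 6.88, 7.02 and 6.95 in NmatNpat lambs. All NmatCpat lambs lay above all NmatNpat lambs, and the difference was 0.88 (95% interval 0.37 to 1.39, limma, P = 0.0041, adjusted p = 0.983, exact permutation p = 0.0286).

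GNMT, which methylates glycine, read 6.25, 6.35, 6.50 and 6.57 in NmatCpat lambs, against 5.90, 5.61, 5.37 and 6.08 in NmatNpat lambs, a difference of 0.68 (limma, P = 0.0099, exact permutation p = 0.0286). The genotypes did not overlap, but its other, dimmer probe set differed by -0.74 and the mean of both by -0.03. SDSL, a serine dehydratase-like enzyme, was the 1 gene of the 149 that was lower past P and fold (1.52% of all named genes were), at 5.77, 6.30, 5.96 and 6.78 in NmatCpat lambs, against 7.52, 8.53, 6.71 and 7.73 in NmatNpat lambs. The lowest NmatNpat lamb lay just below the highest NmatCpat lamb, and the difference was -1.42 (95% interval -2.35 to -0.49, limma, P = 0.0079, exact permutation p = 0.0571). These 3 genes stayed past both thresholds without any 1 lamb, except GNMT without NmatNpat animal 3 (0.55, under the fold threshold).

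Of 14 glutamate and aspartate genes, 3 were higher and 11 lower in NmatCpat lambs, where 50.7% of all named genes were higher. The median was -0.12 and none passed P and fold. This list leaves out GOT1 and GOT2, and its direction was not tested. The smallest P there was that of ABAT, which breaks down the transmitter GABA, at -0.58 and near the floor of the array (limma, P = 0.042, exact permutation p = 0.0571). In the serine and one-carbon list, 7 of 18 were higher, and SHMT2, which makes glycine from serine in mitochondria, differed by 0.39 (95% interval -0.03 to 0.80). The brightest MTHFD2 probe set, for a mitochondrial folate enzyme, differed by 0.02 and a dimmer one by 0.80 (limma, P = 0.0076, exact permutation p = 0.0571).

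Of 21 urea, arginine and proline genes 8 were higher and 0 passed. SAT1, which acetylates polyamines, was lower in every NmatCpat lamb (11.87 to 12.05) than in any NmatNpat lamb (12.29 to 12.55), by a difference of -0.40 that stayed under the fold threshold (limma, P = 0.026, exact permutation p = 0.0286). Of 12 methionine and cysteine genes 5 were higher. MAT2B, a regulatory subunit of the enzyme that makes S-adenosylmethionine, likewise read 9.68 to 9.91 in NmatCpat lambs and 9.97 to 10.12 in NmatNpat lambs, a difference of -0.26 (limma, P = 0.10, exact permutation p = 0.0286). Of 12 aromatic and histidine genes 7 were higher, and HGD, of tyrosine breakdown, had the smallest P at -1.48 (exact permutation p = 0.143), at dim levels.

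Transporters were evenly split, 8 higher and 7 lower. SLC7A5, which imports branched-chain and aromatic amino acids, differed by 0.27 (95% interval -1.01 to 1.55), SLC1A5, a glutamine importer, by 0.37 (-0.26 to 1.0), and SLC38A2, another glutamine importer, by 0.25 (-0.37 to 0.86). Of 25 genes that respond to amino acid shortage 12 were higher, with a median of -0.03, and none passed by its brightest probe set. The dimmer probe set of MARS1, a transfer RNA synthetase, read 5.88 to 6.19 in NmatCpat lambs and 6.28 to 6.93 in NmatNpat lambs, with no overlap and a difference of -0.64 (limma, P = 0.011, adjusted p = 0.983, exact permutation p = 0.0286), and its brightest one differed by -0.42. ATF4, the transcription factor of this response, differed by -0.17 (-0.58 to 0.23), and its targets TRIB3 and DDIT3 by -0.19 (-0.78 to 0.39) and -0.32 (-0.71 to 0.06). PCK2, the mitochondrial phosphoenolpyruvate carboxykinase, read 10.29 to 10.78 in NmatCpat lambs and 9.85 to 10.28 in NmatNpat lambs, with no overlap and a difference of 0.50 (limma, P = 0.038, exact permutation p = 0.0286), under the fold threshold.

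**Figure D5:**
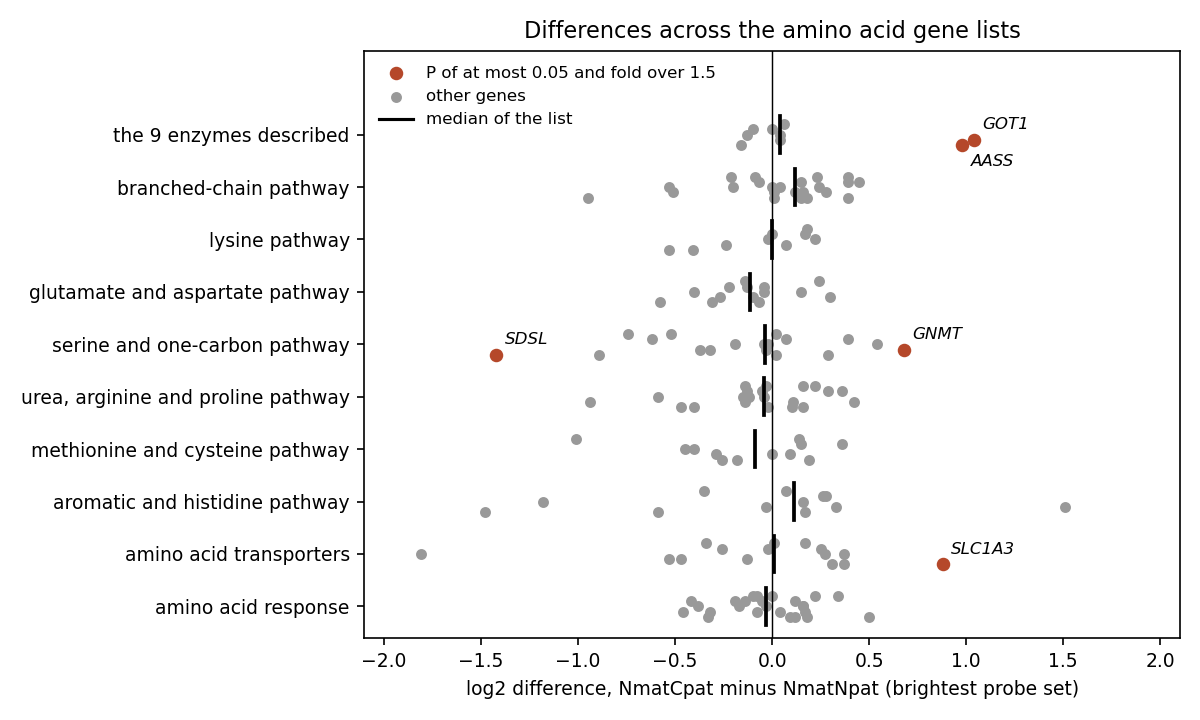
Log2 difference, NmatCpat minus NmatNpat, of the brightest probe set of each gene in the amino acid lists, 1 point a gene, with a bar at the median of each list. Coloured points passed P and fold, namely GOT1, AASS, SLC1A3 and GNMT on the higher side and SDSL on the lower. The medians of all lists lie between -0.12 and 0.12.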

How the data were processed

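Total RNA of perirenal fat from 8 lambs was hybridised to Affymetrix Bovine Genome arrays, 1 a lamb. The deposited intensity values are linear. The authors pre-processed the scans with MAS5 (no version in the sources used here), and state that background was corrected and quantiles normalized afterwards. The deposited columns do not share quantiles, so log2 values were quantile-normalized here over all 24128 probe sets, and the 112 controls were then left out. No 2 arrays shared more than 0.33% of their values exactly. Differences, NmatCpat minus NmatNpat, were fitted over 24016 probe sets with limma 3.58.1 in R 4.3.3 (lmFit, eBayes, Benjamini-Hochberg adjustment), because the study's package does not name its statistic. Thresholds were those of the study, P no higher than 0.05 together with a fold change above 1.5. An adjusted p under 0.05 was also counted. Single values were also tested by exact permutation over the 70 arrangements of the lambs, two-sided.

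Symbols came from the platform annotation, which can be old: 13292 probe sets had 1 symbol, 86 several and 10638 none. The number of arrays and the dimness of a probe set limit the precision. Genes were named by rule: the members, the gene of the smallest P and those past both thresholds in each list, a set of partner enzymes, and the most and least correlated pairs. The dimmer probe sets of DHTKD1, PIPOX, MARS1, MTHFD2 and SLC25A12, the genes SLC25A11 and MDH2, and the relations with marker lists were chosen after their values had been seen. The members and lists were chosen with earlier results of these data known. Titles give animal numbers 1 to 4 in both genotypes and do not say that the numbers pair the lambs. Deviations of lambs of the same number had r of -0.01 to 0.05, and no pairing was used in the main fit. The fits were tested on simulated data. Alternatives were other normalizations, a signal offset, a level filter, other variance models, probe sets that bind several transcripts left out, the mean of a gene's probe sets, an animal-number block, and lambs left out.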

Additional observations from a re-analysis of the deposited data

Results flagged for a closer look

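Of 28 groups of 4 lambs (14 probe sets in each genotype), 2 held a lamb whose distance to the nearest other lamb took up more of the group's range than Dixon's 95% critical value for 4 samples. Chance alone gives about 1 such group in 20. The dimmer BCAT2 probe set read 5.41 in NmatNpat animal 1 and 2.62 to 2.73 in the other 3 NmatNpat lambs, with a gap of 0.962 of the range. GLUL read 13.51 in NmatCpat animal 4 and 13.32 to 13.34 in the other 3 NmatCpat lambs, with a gap of 0.9 of the range.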

How the results depend on the processing

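The count of 2 member genes past P and fold, both higher in NmatCpat lambs, was 1 with an offset of 16 added to the intensities, 1 with trended and robust variances, 0 with probe sets below the median level left out (which removes GOT1 and AASS from the fit), 0 with both NmatCpat animal 4 and NmatNpat animal 1 left out, 0 at an adjusted p under 0.05, and 0 to 2 with 1 lamb left out. Counted over the 14 probe sets, the 2 past both thresholds gave the same numbers: 1, 1, 0 and 0 under the first 4 of those settings, and 0 to 2 with 1 lamb left out. The 3 wider amino acid genes became 5 with the animal number as a replicate block, 10 without both of those lambs, 7 with no fold threshold, and 3 to 10 with 1 lamb left out. The block left 2 member genes past both thresholds. The titles do not say that animal numbers pair the lambs. Deviations of NmatCpat animals 1, 2 and 3 but not 4 correlated best with the NmatNpat lamb of their own number. These r were only 0.04, 0.01 and 0.05, too near 0 to say whether the numbers pair the lambs. Over all probe sets the 943 became 244 with those below the median level left out, 626 without moderated variances and 0 at an adjusted p under 0.05. The count was 1124 with the block and 980 to 1054 with 1 lamb left out. Differences that changed sign were those of GOT2 (-0.01 to 0.19 with 1 lamb left out, negative without NmatNpat animal 2), BCKDHA (-0.14 to 0.22, with values of -0.13, -0.03, -0.14 and -0.01 on the lower side), BCKDHB (-0.34 to 0.27, and -0.15) and PSAT1 (-0.47 to 0.49, and 0.48 without both of those lambs). GOT1 stayed between 0.72 and 1.35 and AASS between 0.45 and 1.17 under all 18 alternatives that gave a value, with adjusted p of 0.94 to 1. The cause of these changes was not tested.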
